A study of Arabidopsis thaliana with 29 samples.

Results

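The 9 Arabidopsis genes that make, break down and carry proline were followed in leaves of plants made to over-express GLUTAMINE DUMPER (GDU) genes, whose small plant membrane proteins are known to change amino acid export. They were found by locus identifier, symbol or synonym among the 32650 entries of each of 7 tables, and each of the 9 was tested in each of the 7 comparisons. They comprise 3 synthesis genes (P5CS1, P5CS2 and P5CR), 3 breakdown genes (ERD5, AT5G38710 and P5CDH) and 3 transporter genes (PROT1, PROT2 and PROT3). P5CS1 was higher than in the control in all 7 comparisons, whereas ERD5 was lower in the dexamethasone-sprayed line and higher in the 5 unsprayed lines, among them libraries labelled 35S-GDU4 in which no rise of GDU4 was measured.

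Dex-GDU1 plants carry GDU1 under the dexamethasone-inducible 6Op-LHGRn system, and derive from the line 4c-S7, which serves as their control. Plants of either line were sprayed with 100 µM dexamethasone and 300 ppm Silwet L-77 at 5 h after dawn, kept under a humidity dome for 7 h, and sampled 7 h and 25 h after the spray. There were 3 Dex-GDU1 libraries and 4 4c-S7 libraries at each time. The unsprayed lines were gdu1-1D, which over-expresses GDU1 constitutively, with 3 libraries, and the 35S lines of GDU2, GDU4, GDU5 and GDU6, of which each had 2 libraries. In the 35S lines the CaMV 35S promoter drives the transgene in Col wild type plants. The same 2 Col libraries were the control of all 5 unsprayed lines, so those comparisons are not independent of each other. Every plant was of the Columbia ecotype and was raised on soil at 22 °C with 16 h light and 8 h dark for 23 days, or 4 weeks by the series' design text. Each library pooled all leaves of 4 to 6 plants. The number of independent transformants behind each label is not given in the sources used here, and the series holds 29 libraries in 12 groups, of which 35S-GDU1 and 35S-GDU3 (1 library each) are not analysed here.

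Levels are given as FPKM (fragment counts divided by transcript length and by the mapped fragments of the library), and the authors' deposited tables give them as 1 value per gene and group. No spread between libraries and no depth could therefore be given, and the replicate error enters only through the authors' Cuffdiff test. A gene is said to rise or fall where the authors' q was below 0.05. Fold changes are line over control and were computed from the FPKM values. Standard errors (SE) of log2 fold changes were recomputed from the authors' p-values. At the smallest p of 5e-05 they are upper bounds only if those p-values are taken as right. The deposited test statistics imply other errors. In Dex-GDU1 these were 0.17 in place of 0.07 for ERD5 at 7 h, and 0.16 in place of 0.65 for P5CS1 at 25 h. The libraries are numbered as biological replicates, but each also had 2 sequencing runs, and the labels do not say if Cuffdiff took the runs as replicates, so the p-values measure a spread that may be technical. No unsprayed group of either line is analysed here, so a comparison of Dex-GDU1 with 4c-S7 includes lasting differences between the lines.

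The over-expressed gene was examined first in the authors' deposited tables. GDU1 reached 5281 FPKM in Dex-GDU1 after 7 h, against 23.3 FPKM in 4c-S7, and 3362 FPKM after 25 h, against 6.52 FPKM in 4c-S7. It stood at 294 FPKM in gdu1-1D, against 5.19 FPKM in Col. GDU2, GDU5 and GDU6 stood at 4706, 3198 and 30183 FPKM in their 35S lines, against 2.72, 2.86 and 9.14 FPKM in Col. The libraries labelled 35S-GDU4 had 10.9 FPKM of GDU4, against 8.72 FPKM in Col, which did not pass the test (q 0.949 in the authors' deposited table), and the position of GDU4 is shared by 47 entries. Of the leaf markers, RCA stood at 3112 FPKM or more wherever it was estimated, and RBCS1A was not tested in any table, where its status marks too many fragments to estimate. RBCS1A is listed at 0 in at least 1 group of each of the 7 tables. The other listed leaf marker, LHCB1.1, was low. At 7 h it was not tested, with 0.355 FPKM in Dex-GDU1 and 0 FPKM in 4c-S7. In the other comparisons it stood between 1.71 and 5.23 FPKM and did not pass. Its position is shared by 2 entries. The root markers PRP3, EXP7 and COBL9 did not exceed 0.0509 FPKM in a line or 0.0348 FPKM in a control. The flower markers AP3, PI and LTP12 summed to 3.31 FPKM in 35S-GDU2, against 0.257 FPKM in Col, to 1.99 FPKM in 35S-GDU5, against 0.275 FPKM in Col, and to at most 0.296 FPKM in the other lines.

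Plants make proline from glutamate. P5C synthetase, encoded by P5CS1 and P5CS2, carries out the first and rate-limiting steps, and P5C reductase (P5CR) completes the pathway. Proline is broken down in mitochondria by proline dehydrogenase, encoded by ERD5 and AT5G38710, and by P5C dehydrogenase (P5CDH), which returns glutamate. Leaves are known to accumulate proline under drought, salt and cold, when P5CS1 is induced and ERD5 repressed, and to re-express ERD5 upon rehydration or when proline is supplied. The PROT proteins take up proline, glycine betaine and related compounds across the plasma membrane.

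The promoters of P5CS1, ERD5 and P5CDH are shown because these genes encode the entry to synthesis and both breakdown steps, and because ERD5 and P5CDH hold ACTCAT, the element known from the ERD5 promoter. Each sequence is the 250 bases before the RefSeq gene start on TAIR10.1, read 5′ to 3′ along the gene, with ACTCAT on either strand in capitals (ATGAGT is its reverse complement). P5CS1 lies at chr2:16603320-16603569, ERD5 at chr3:12451557-12451806 and P5CDH at chr5:25103313-25103562, all on the minus strand. The RefSeq start of ERD5 lies upstream of the end listed for its entry in the authors' tables.
P5CS1: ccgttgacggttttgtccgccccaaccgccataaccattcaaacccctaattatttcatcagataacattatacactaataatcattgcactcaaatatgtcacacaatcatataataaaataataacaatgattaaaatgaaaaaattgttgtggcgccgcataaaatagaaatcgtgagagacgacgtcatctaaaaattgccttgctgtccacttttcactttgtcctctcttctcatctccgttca
ERD5: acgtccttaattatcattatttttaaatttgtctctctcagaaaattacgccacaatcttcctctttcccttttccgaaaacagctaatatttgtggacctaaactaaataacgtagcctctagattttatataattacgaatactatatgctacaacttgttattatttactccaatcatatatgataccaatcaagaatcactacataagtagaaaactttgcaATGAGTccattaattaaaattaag
P5CDH: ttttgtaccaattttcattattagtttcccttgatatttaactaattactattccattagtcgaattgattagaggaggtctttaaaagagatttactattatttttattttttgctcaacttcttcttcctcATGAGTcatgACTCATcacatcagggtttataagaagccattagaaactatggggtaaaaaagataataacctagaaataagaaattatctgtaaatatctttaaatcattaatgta
The ERD5 promoter held ACTCAT with its first base 24 bases before the start, and the P5CDH promoter held it at 117 and 107 bases before the start, once on each strand. ACTCAT occurred in 12.3% of the 27438 promoters of this length, or 3376 of them. Of the other motifs searched on both strands, ACGTG, the core of abscisic acid response elements, stood in the promoters of P5CR (51 bases before the start), PROT1 (203) and PROT3 (15), and in 22.9% of all promoters. CCGAC, the core of the drought response element, stood in those of P5CS2 (41) and P5CR (7), and in 12.0% of all. None of the 3 motifs was found in the windows of P5CS1, AT5G38710 and PROT2. These matches describe letters only.

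P5CS1 (AT2G39800, chromosome 2, 16596987 to 16603319 on TAIR10), the stress-inducible synthase gene, rose in all 7 comparisons in the authors' deposited tables. At 7 h after the spray it stood at 12.0 FPKM in Dex-GDU1, against 9.49 FPKM in 4c-S7 (log2 fold change 0.33, SE 0.09; q 0.00397 in the authors' deposited table). The deposited test statistic at 7 h was only 1.47, which implies a larger SE of 0.23. At 25 h P5CS1 stood at 189 FPKM in Dex-GDU1, against 30.7 FPKM in 4c-S7, a 6.14-fold rise (log2 fold change 2.62, SE 0.65; q 0.00019 in the authors' deposited table). Only 102 of the 17652 genes tested at 25 h had a larger log2 fold change, compared with 1287 of 17496 at 7 h. The levels of both lines were thus further apart at the later time, and the 4c-S7 value itself differed between the times, which were normalised in separate tables.

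Among the unsprayed lines P5CS1 stood at 327 FPKM in gdu1-1D, against 58.1 FPKM in Col (5.62-fold; q 0.000209 in the authors' deposited table). It stood at 297 FPKM in 35S-GDU2, against 56.3 FPKM in Col (5.27-fold), at 225 FPKM in 35S-GDU5, against 60.2 FPKM in Col (3.74-fold), and at 374 FPKM in 35S-GDU6, against 54.3 FPKM in Col (6.89-fold). The libraries labelled 35S-GDU4 stood apart from these 4 lines, with 62.7 FPKM against 54.4 FPKM in Col (log2 fold change 0.21, SE 0.07; q 0.0319 in the authors' deposited table). The deposited test statistic of this small rise was 1.39, which implies a larger SE of 0.15. Because the Col values of the 5 tables differ by nearly 1 factor per table, the line levels can be put on 1 scale. On it P5CS1 ran in descending order from 35S-GDU6 (400 FPKM) through gdu1-1D (326), 35S-GDU2 (306) and 35S-GDU5 (217) to the libraries labelled 35S-GDU4 (67.0) and Col (58.1). No spread between libraries is at hand to say which neighbours in this order differ, and no test between lines was made.

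**Figure D1:**
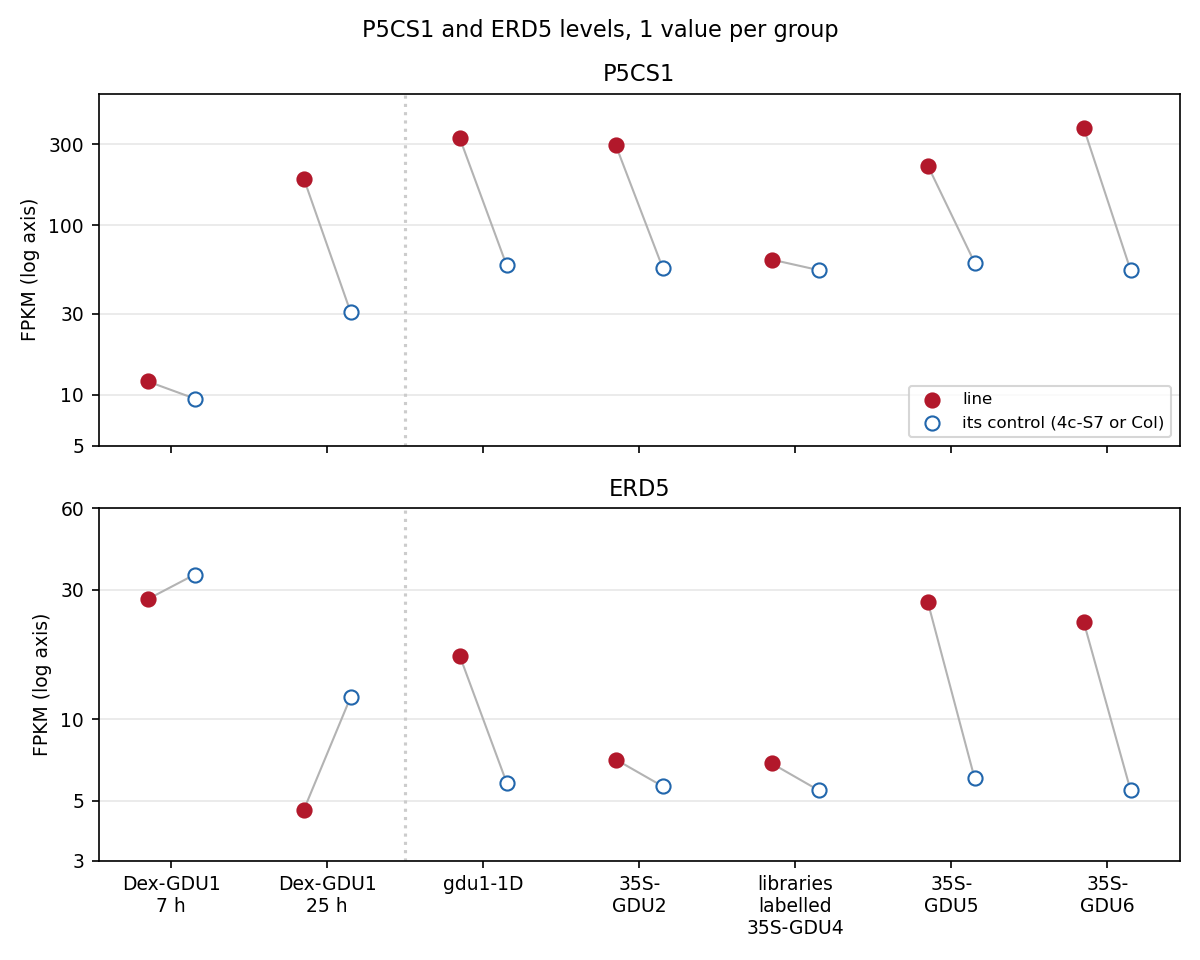
FPKM of P5CS1 (upper panel) and ERD5 (lower panel) on log axes, 1 authors' value per group, with each line (filled) left of its control (open). P5CS1 is higher in the line in each of the 7 pairs, whereas ERD5 is lower in both Dex-GDU1 pairs, left of the dotted line, and higher in the 5 constitutive pairs.

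P5CS2 (AT3G55610, chromosome 3, 20624020 to 20629093), the other synthase gene, which is known to be expressed in dividing tissues, rose in 4 of 7 comparisons and by less than P5CS1. At 25 h it stood at 62.2 FPKM in Dex-GDU1, against 35.7 FPKM in 4c-S7 (log2 fold change 0.80, SE 0.20; q 0.00019 in the authors' deposited table). Its log2 fold change was 0.40 in gdu1-1D, 0.42 in 35S-GDU6 and 0.25 in 35S-GDU2, and P5CS2 did not pass at 7 h (0.06), in 35S-GDU5 (0.12) or in the libraries labelled 35S-GDU4 (0.07). P5CR (AT5G14800, chromosome 5, 4785960 to 4787839) changed little, with log2 fold changes from -0.240 to 0.252. It fell in gdu1-1D, with 39.4 FPKM against 46.5 FPKM in Col, and in 35S-GDU6, with 37.6 FPKM against 43.5 FPKM in Col, and rose in the libraries labelled 35S-GDU4, with 51.8 FPKM against 43.5 FPKM in Col, in the authors' deposited tables. In Dex-GDU1 it stood at 64.1 FPKM at 7 h, against 70.7 FPKM in 4c-S7, and at 56.4 FPKM at 25 h, against 59.5 FPKM in 4c-S7 (q 0.0817 and 0.277 in the authors' deposited tables). P5CS1 and P5CR, the first and the last enzyme gene of the pathway, therefore changed in opposite directions in gdu1-1D and in 35S-GDU6.

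The unequal changes of both synthase genes shifted their proportions. P5CS1 made up 75.2% of the summed FPKM of both synthases in Dex-GDU1 at 25 h, against 46.3% in 4c-S7. At 7 h its share was 32.9% in Dex-GDU1, against 28.9% in 4c-S7. The share was 84.9% in gdu1-1D, 85.4% in 35S-GDU2, 82.0% in 35S-GDU5 and 87.2% in 35S-GDU6, against 56.9% in Col, and 59.1% in the libraries labelled 35S-GDU4. FPKM is per transcript length, so both genes can be set against each other, but these shares carry no error.

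ERD5 (AT3G30775, chromosome 3, 12448636 to 12451248), the main proline dehydrogenase gene, changed in all 7 comparisons, downward in 2 and upward in 5. At 7 h it stood at 27.7 FPKM in Dex-GDU1, against 34.2 FPKM in 4c-S7 (log2 fold change -0.30, SE 0.07; q 0.000725 in the authors' deposited table). The deposited test statistic at 7 h was -1.82, which implies a larger SE of 0.17. At 25 h ERD5 stood at 4.62 FPKM in Dex-GDU1, against 12.0 FPKM in 4c-S7 (log2 fold change -1.38, SE 0.34; q 0.00019 in the authors' deposited table). Of all genes tested at 25 h, only 71 had a smaller log2 fold change.

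The constitutive lines went the other way. ERD5 stood at 17.1 FPKM in gdu1-1D, against 5.83 FPKM in Col (log2 fold change 1.55, SE 0.38), at 27.1 FPKM in 35S-GDU5, against 6.05 FPKM in Col (2.16, SE 0.53), and at 22.8 FPKM in 35S-GDU6, against 5.45 FPKM in Col (2.06, SE 0.51). The rise was smaller in 35S-GDU2, at 7.09 FPKM against 5.65 FPKM in Col (log2 fold change 0.33, SE 0.12; q 0.0229 in the authors' deposited table). The libraries labelled 35S-GDU4 had a rise of like size, at 6.86 FPKM against 5.46 FPKM in Col (0.33, SE 0.10; q 0.012 in the authors' deposited table). On the common Col scale ERD5 ran from 35S-GDU5 (26.1 FPKM) and 35S-GDU6 (24.4) through gdu1-1D (17.1) to 35S-GDU2 and the libraries labelled 35S-GDU4 (both 7.32) and Col (5.83). The order therefore differed from that of P5CS1, since 35S-GDU2 was among the lines with high P5CS1 and near the bottom for ERD5.

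AT5G38710 (chromosome 5, 15501228 to 15504109), the second proline dehydrogenase gene, was expressed at low level and rose in 5 of 7 comparisons. At 25 h it stood at 5.97 FPKM in Dex-GDU1, against 2.42 FPKM in 4c-S7 (log2 fold change 1.31, SE 0.32; q 0.00019 in the authors' deposited table), where ERD5 fell. It also rose in 35S-GDU5, at 8.54 FPKM against 3.64 FPKM in Col (log2 fold change 1.23, SE 0.30), in gdu1-1D (0.68, SE 0.17), in 35S-GDU2 (0.62, SE 0.16) and in 35S-GDU6 (0.52, SE 0.13). It did not pass at 7 h, with 3.05 against 2.85 FPKM (q 0.696), or in the libraries labelled 35S-GDU4, with 2.66 against 3.29 FPKM (q 0.153), in the authors' deposited tables. Both dehydrogenase genes thus rose in 4 of the 5 constitutive comparisons and changed in opposite directions in Dex-GDU1 at 25 h.

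AT5G38710 made up 56.4% of the summed FPKM of both dehydrogenases in Dex-GDU1 at 25 h, against 16.7% in 4c-S7, so the gene with the lower level in each other group was there the more abundant. At 7 h it made up 9.92% in Dex-GDU1, against 7.69% in 4c-S7. In the constitutive lines its share was 24.7% in gdu1-1D, 42.5% in 35S-GDU2, 24.0% in 35S-GDU5, 17.2% in 35S-GDU6 and 28.0% in the libraries labelled 35S-GDU4, against 37.6% in Col. The summed level of both genes at 25 h was 10.6 FPKM in Dex-GDU1, against 14.5 FPKM in 4c-S7. It was 35.6 FPKM in 35S-GDU5, against 9.69 FPKM in Col, and 27.5 FPKM in 35S-GDU6, against 8.73 FPKM in Col.

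**Figure D2:**
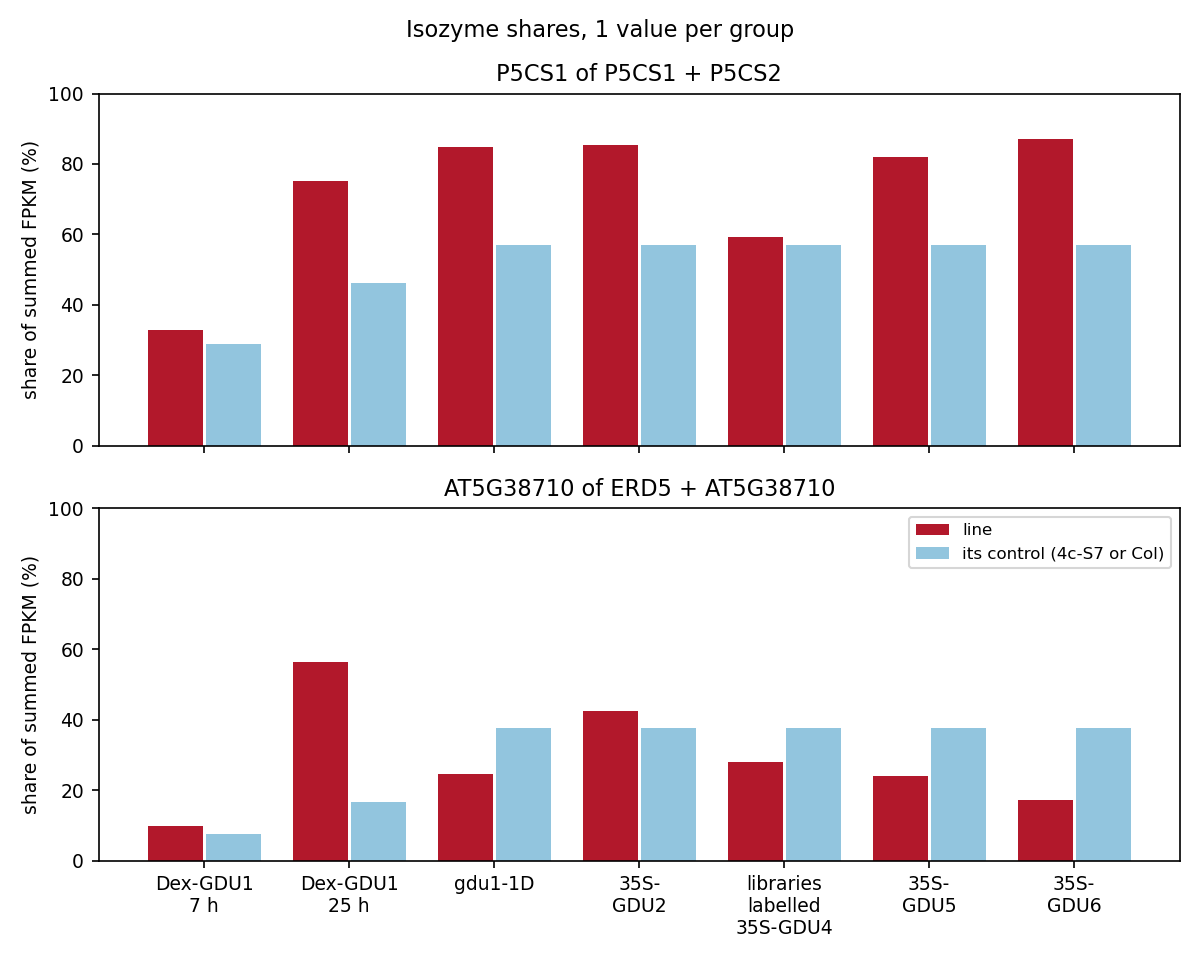
Share (%) of P5CS1 in the summed FPKM of both synthase genes (upper panel) and of AT5G38710 in the summed FPKM of both dehydrogenase genes (lower panel), each line left of its control, 1 value per group and no error. P5CS1 takes 75.2% to 87.2% in 5 of the lines, and AT5G38710 exceeds ERD5 only in Dex-GDU1 at 25 h.

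P5CDH (AT5G62530, chromosome 5, 25097998 to 25103388), the second breakdown step, changed little. It rose in Dex-GDU1 at 25 h, with 33.0 FPKM against 24.1 FPKM in 4c-S7 (log2 fold change 0.45, SE 0.11; q 0.00019 in the authors' deposited table), and in 35S-GDU2, with 27.4 FPKM against 23.7 FPKM in Col (0.21, SE 0.08; q 0.044 in the authors' deposited table). In the other 5 comparisons its log2 fold change lay between -0.09 and 0.16 and did not pass. P5CDH overlaps SRO5 by 905 bases in the annotation, and whether the counting used strand is not given in the sources used here. SRO5 was low, between 0.117 and 0.812 FPKM over all groups in the authors' deposited tables, and was not called in any comparison.

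Other overlaps were shorter. P5CS1 shares 91 bases with AT2G39795, which stayed between 7.62 and 19.8 FPKM and was not called in any comparison, while P5CS1 reached 374 FPKM. P5CS2 shares 32 bases with AT3G55605. PROT3 shares 81 bases with AT2G36580, which stood between 16.9 and 69.4 FPKM, above PROT3 in each group, and was called in 4 comparisons in the authors' deposited tables. The values of PROT3 are uncertain to the extent that reads of this neighbour were given to it.

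The transporter genes rose in Dex-GDU1 at 25 h, whereas in the constitutive lines 4 of their 5 called changes were falls. PROT1 (AT2G39890, chromosome 2, 16652101 to 16658334), a gene known to be expressed in vascular tissue, stood at 16.4 FPKM in Dex-GDU1, against 12.6 FPKM in 4c-S7, at 7 h (log2 fold change 0.37, SE 0.09). At 25 h it stood at 18.1 FPKM in Dex-GDU1, against 13.5 FPKM in 4c-S7 (0.42, SE 0.10). It fell in 35S-GDU5, with 12.4 FPKM against 17.8 FPKM in Col (log2 fold change -0.52, SE 0.13; q 0.000145 in the authors' deposited table), and did not pass in the other 4 constitutive lines, where its log2 fold change lay between -0.21 and 0.02. PROT2 (AT3G55740, chromosome 3, 20691647 to 20698271), known from roots and wounded leaves, rose by 0.23 (SE 0.07) at 7 h and by 0.24 (SE 0.09) at 25 h on the log2 scale in Dex-GDU1. Its 7 h level was 17.8 FPKM in Dex-GDU1, against 15.2 FPKM in 4c-S7, and its 25 h level was 8.70 FPKM in Dex-GDU1, against 7.39 FPKM in 4c-S7. It rose in 35S-GDU6, with 11.5 FPKM against 9.07 FPKM in Col (log2 fold change 0.34, SE 0.10), and its log2 fold change of -0.22 to -0.09 in the other 4 constitutive lines did not pass.

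PROT3 (AT2G36590, chromosome 2, 15339122 to 15345337), known from the leaf epidermis, had the lowest level of the 3 in Col and the widest range of log2 fold changes. At 25 h it stood at 9.77 FPKM in Dex-GDU1, against 5.51 FPKM in 4c-S7 (log2 fold change 0.83, SE 0.20; q 0.00019 in the authors' deposited table), and at 7 h at 2.59 against 2.53 FPKM (q 0.98). It fell in gdu1-1D, with 2.83 FPKM against 5.26 FPKM in Col (log2 fold change -0.89, SE 0.37; q 0.0354 in the authors' deposited table), in 35S-GDU5, with 2.80 against 5.45 FPKM (-0.96, SE 0.36), and in 35S-GDU6, with 2.42 against 4.92 FPKM (-1.02, SE 0.28). 35S-GDU2 did not pass (log2 fold change -0.45, q 0.336), nor did the libraries labelled 35S-GDU4 (0.38, q 0.27) in the authors' deposited tables. The called changes of PROT1 and PROT3 were thus upward in Dex-GDU1 and downward in the unsprayed lines.

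Markers of the cell types in which the transporters are known were set beside these values, and bulk leaves cannot separate fewer cells of a type from less RNA per cell. Of the 4 epidermis markers (ATML1, PDF1, FDH and GL2), 0 rose and 2 fell in Dex-GDU1 at 25 h and in gdu1-1D, 1 rose and 1 fell in 35S-GDU5, and 0 rose and 1 fell in 35S-GDU6. Their summed level was 118 FPKM in Dex-GDU1, against 136 FPKM in 4c-S7, at 25 h, 121 FPKM in gdu1-1D, against 140.1 FPKM in Col, 270.1 FPKM in 35S-GDU5, against 145 FPKM in Col, and 122 FPKM in 35S-GDU6, against 131 FPKM in Col. None of them was at 0, and GL2 was tested only in the Dex-GDU1 tables. In 35S-GDU5 PDF1 rose, with 163 FPKM against 26.7 FPKM in Col, while ATML1 had 23.6 FPKM against 24.1 FPKM in Col and FDH 82.9 FPKM against 94.3 FPKM in Col. Of the 4 vascular markers (SUC2, APL, SWEET11 and SWEET12), 1 rose and 3 fell in 35S-GDU5, where PROT1 fell, with a summed level of 263 FPKM, against 308 FPKM in Col. In Dex-GDU1, 1 of these rose and 0 fell at 7 h (681 FPKM, against 645 FPKM in 4c-S7), and 1 rose and 2 fell at 25 h (429 FPKM, against 402 FPKM in 4c-S7). Of the 4 guard-cell markers (FAMA, KAT1, MYB60 and GASA9), 4 fell in 35S-GDU2, 35S-GDU5 and 35S-GDU6 and 3 in gdu1-1D and in Dex-GDU1 at 25 h. Of all tested genes, 10.2% fell in 35S-GDU2, 26.5% in 35S-GDU5, 23.9% in 35S-GDU6 and 21.4% in gdu1-1D. In Dex-GDU1 21.6% fell at 25 h and 7.19% at 7 h. The shares that rose were 28.5% in 35S-GDU5, 24.9% in 35S-GDU6 and 23.1% in gdu1-1D. In Dex-GDU1 they were 24.5% at 25 h and 8.76% at 7 h. The part of the markers in the proline gene results was not tested.

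**Figure D3:**
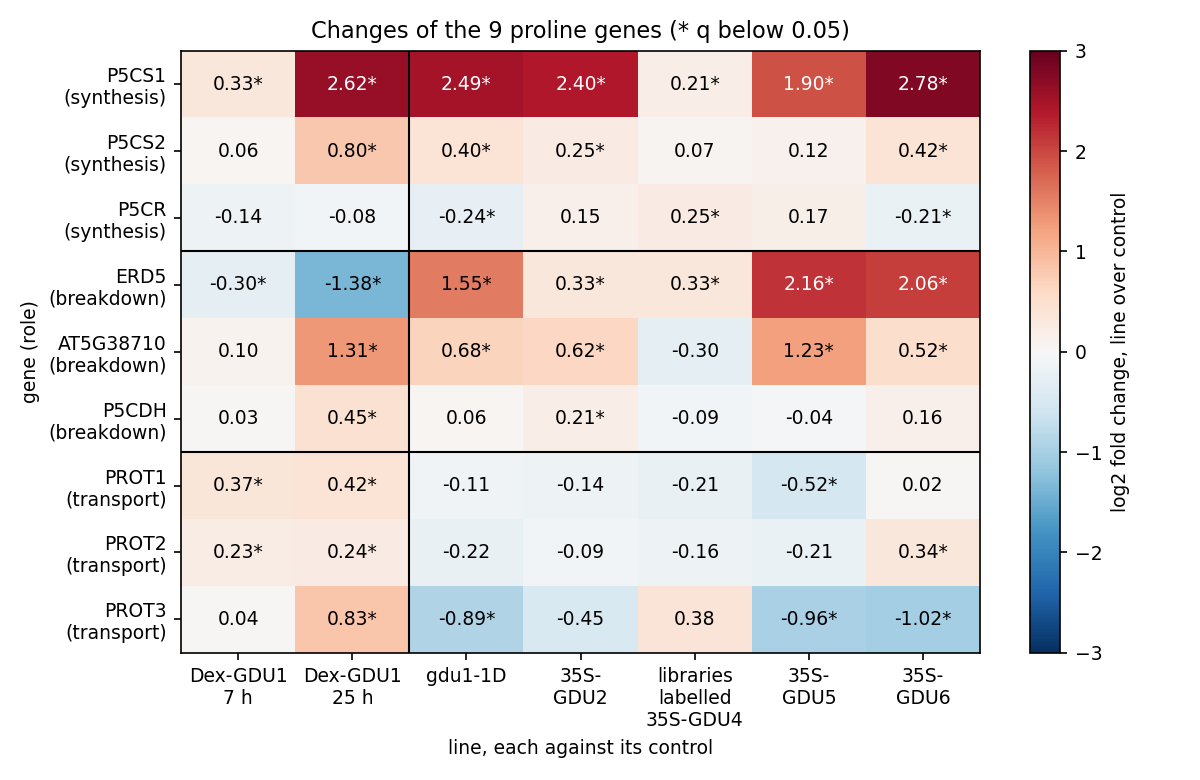
Log2 fold change, line over control, of the 9 proline genes (rows, grouped by role) in the 7 comparisons (columns), with an asterisk where the authors' q was below 0.05. The P5CS1 row is positive throughout, and the ERD5 and PROT3 rows change sign between Dex-GDU1 at 25 h and gdu1-1D, 35S-GDU5 and 35S-GDU6.

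Counted together, 3 of the 9 genes rose and 1 fell in Dex-GDU1 at 7 h, where 8.76% of all tested genes rose and 7.19% fell by the authors' q below 0.05 (16.0% in all). At 25 h, 7 rose and 1 fell, where 24.5% of all rose and 21.6% fell (46.1% in all). In gdu1-1D, 4 rose and 2 fell, beside 23.1% and 21.4% of all tested genes (44.5% together). In 35S-GDU2, 5 rose and 0 fell, beside 14.5% and 10.2% of all (24.7% together). In 35S-GDU5, 3 rose and 2 fell, beside 28.5% and 26.5% of all (55.0% together), and in 35S-GDU6, 5 rose and 2 fell, beside 24.9% and 23.9% (48.8% together). In the libraries labelled 35S-GDU4, 3 rose and 0 fell, beside 9.65% and 5.71% of all (15.4% together). With about every other gene called in several tables, a call of a proline gene there says little by itself, and the size of the change is the more telling value. The median absolute log2 fold change of the 9 was 0.80 in Dex-GDU1 at 25 h, against 0.22 over all tested genes, 0.40 in gdu1-1D, against 0.27, and 0.52 in 35S-GDU5, against 0.38. It was 0.14 against 0.11 at 7 h.

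Whether the changes in Dex-GDU1 differed between both times was tested directly, as the difference of log2 fold changes over its standard error, with Benjamini-Hochberg adjustment over 17114 genes. Both harvests differ in time since the spray, in time of day and in time since the humidity dome, and these cannot be told apart. The changes of P5CS1 and ERD5 were both larger at 25 h, in opposite directions. P5CS1 differed by 2.28 (SE 0.65, adjusted p 0.0067), P5CS2 by 0.74 (SE 0.21, adjusted p 0.0053) and ERD5 by -1.08 (SE 0.35, adjusted p 0.0176). AT5G38710 differed by 1.20 (SE 0.35, adjusted p 0.00697) and P5CDH by 0.42 (SE 0.13, adjusted p 0.0108), but these 2 did not pass when the standard error was taken from the deposited test statistic (adjusted p 0.176 and 0.692). P5CR, PROT1, PROT2 and PROT3 did not differ past the threshold, with differences of 0.06 (95% interval -0.10 to 0.22), 0.04 (-0.23 to 0.31), 0.01 (-0.21 to 0.23) and 0.79 (-0.04 to 1.62). In all, 5 of the 9 genes differed, 4 more positive and 1 more negative at 25 h, while 17.2% of all genes differed, 10.4% more positive and 6.88% more negative.

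Dex-GDU1 at 25 h and gdu1-1D both over-express GDU1, but they differ in spray, in the control line and in how long the gene was over-expressed, and these cannot be told apart. For Col and the unsprayed lines the labels do not say whether sampling matched the 7 h or the 25 h harvest of the sprayed plants, so time of sampling may differ too. In 4c-S7 the levels differed between those harvests, with ERD5 at 34.2 FPKM at 7 h and 12.0 FPKM at 25 h. The 2 comparisons share no library. ERD5 gave the lowest adjusted p of the 9, its log2 fold change being lower by 2.94 in Dex-GDU1 at 25 h (difference -2.94, SE 0.51, adjusted p 6.77e-06). P5CS1 did not differ past the threshold (difference 0.13, 95% interval -1.62 to 1.87). Both of its standard errors are upper bounds set by the smallest p, and with those from the test statistic the interval was -0.35 to 0.60. Each transporter gene had a more positive change in Dex-GDU1, PROT3 by 1.72 (SE 0.42, adjusted p 0.00148), PROT1 by 0.53 (SE 0.14, adjusted p 0.00318) and PROT2 by 0.46 (SE 0.13, adjusted p 0.0124), as did P5CDH by 0.40 (SE 0.14, adjusted p 0.0373). With the standard error from the test statistic only ERD5 of the 9 passed, and PROT3, PROT1, PROT2 and P5CDH stood at adjusted p 0.464, 0.6, 1 and 0.777. For P5CS2, P5CR and AT5G38710 the differences were 0.40 (95% interval -0.03 to 0.84), 0.16 (-0.03 to 0.35) and 0.63 (-0.08 to 1.34). Thus 4 of the 9 were more positive and 1 more negative, while 11.6% of all 17329 genes differed, 6.6% more positive and 5.05% more negative.

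**Figure D4:**
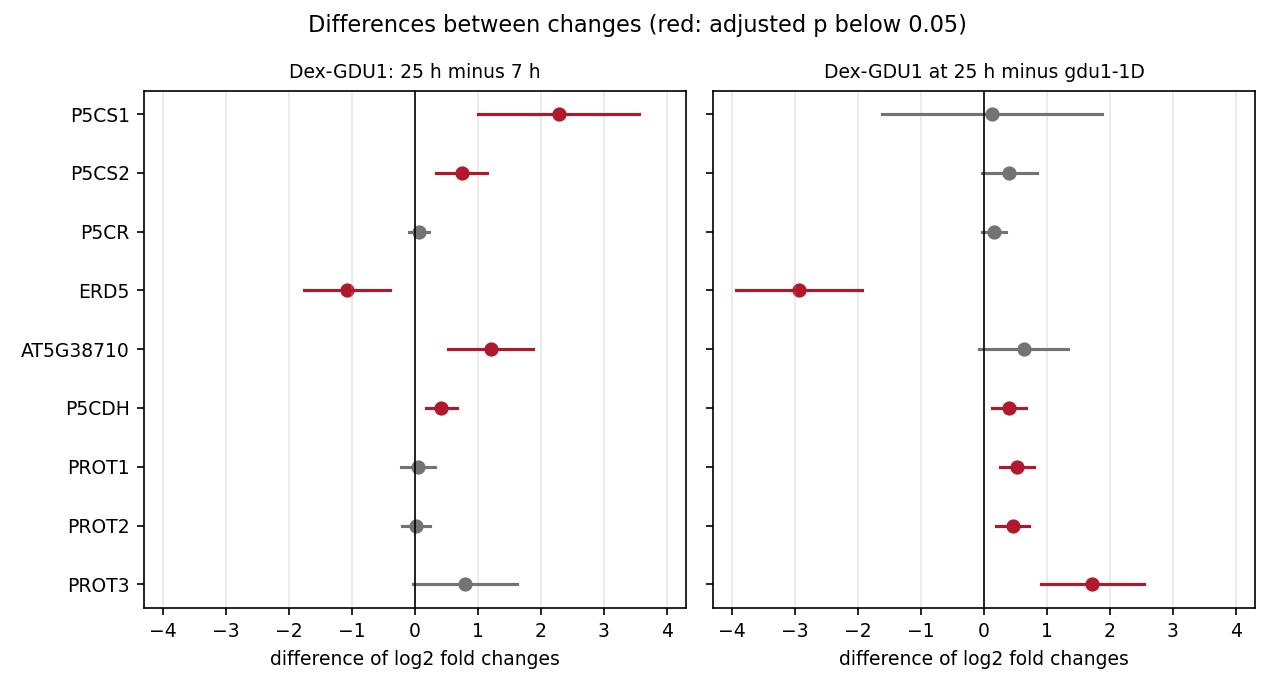
Differences between log2 fold changes of the 9 proline genes, with 95% intervals from standard errors recomputed from the authors' p-values: Dex-GDU1 at 25 h minus 7 h (left) and Dex-GDU1 at 25 h minus gdu1-1D (right). ERD5 lies below 0 in both panels, at -1.08 and -2.94, and P5CS1 lies at 2.28 on the left and at 0.13 on the right.

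The ratio of P5CS1 to ERD5 FPKM sets a synthase gene beside a dehydrogenase gene within a group. It was 40.8 in Dex-GDU1 at 25 h, against 2.55 in 4c-S7, and 0.432 in Dex-GDU1 at 7 h, against 0.278 in 4c-S7. It was 41.8 in 35S-GDU2, 19.1 in gdu1-1D, 16.4 in 35S-GDU6, 9.15 in the libraries labelled 35S-GDU4 and 8.32 in 35S-GDU5, against 9.96 to 9.97 in Col. In 35S-GDU5 both genes were higher than in Col and their ratio was lower, whereas in 35S-GDU2 the P5CS1 rise was accompanied by a small rise of ERD5. The ratio leaves out AT5G38710, the other dehydrogenase gene. ERD5 made up 43.6% of the summed FPKM of both dehydrogenases in Dex-GDU1 at 25 h, against 83.3% in 4c-S7. In 35S-GDU2 ERD5 made up 57.5%, against 62.4% in Col. The values have no error.

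Genes with the most similar set of 7 log2 fold changes were looked up among 5193 genes with a symbol and at least 5 FPKM, using the root mean square difference, as a description with no test. Closest to P5CS1 were the cold-regulated chloroplast protein gene COR15B (0.42), the drought and cold gene LTI78 (0.45), the methyltransferase gene FAMT (0.45), the caleosin gene RD20 (0.47) and COR15A (0.48). COR15B had log2 fold changes of 2.23 in Dex-GDU1 at 25 h, 1.64 in gdu1-1D and 2.59 in 35S-GDU6. Closest to ERD5 were DIN10, a dark-inducible gene (0.59), the xylosidase gene BXL1 (0.63), ADR1-L1 (0.68), the sugar transporter gene ERD6 (0.71) and XYL4 (0.75). The likeness was looser than for P5CS1. DIN10 stood at a log2 fold change of -1.01 in Dex-GDU1 at 25 h and 2.43 in 35S-GDU6, whereas BXL1 stood at -0.08 and 2.63.

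Ornithine and arginine feed into proline through P5C, and 13 of 14 listed genes of this branch were tested, BAC2 being the exception. NATA1, which encodes an enzyme that acetylates ornithine, rose in all 7 comparisons by the authors' q. Its level was 15.2 FPKM in Dex-GDU1 at 25 h, against 1.09 FPKM in 4c-S7 (log2 fold change 3.80), 23.5 FPKM in gdu1-1D, against 0.287 FPKM in Col (6.36), and 27.0 FPKM in 35S-GDU5, against 0.298 FPKM in Col (6.50). At 7 h it stood at 1.19 FPKM in Dex-GDU1, against 0.643 FPKM in 4c-S7 (log2 fold change 0.89; q 0.0394 in the authors' deposited table), and 262 of all tested genes had a larger log2 fold change. The arginase gene ARGAH2 rose in 5 comparisons, reaching 231 FPKM in 35S-GDU6, against 100.1 FPKM in Col (log2 fold change 1.21), and 275 FPKM in Dex-GDU1 at 25 h, against 164 FPKM in 4c-S7 (0.75). The arginine decarboxylase gene ADC1 fell in 6 comparisons, most in 35S-GDU6, with 40.3 FPKM against 79.3 FPKM in Col (log2 fold change -0.98). The other arginine decarboxylase gene, ADC2, rose in 4 comparisons, with 105 FPKM in Dex-GDU1 at 25 h, against 58.5 FPKM in 4c-S7 (log2 fold change 0.84), and by 0.27 at 7 h, 0.31 in 35S-GDU2 and 0.32 in 35S-GDU6 on the log2 scale. The ornithine carbamoyltransferase gene OTC fell in 4 comparisons, by 0.51 in gdu1-1D, 0.43 in 35S-GDU6, 0.39 in 35S-GDU5 and 0.33 in Dex-GDU1 at 25 h on the log2 scale. Ornithine aminotransferase (OAT), whose entry joins a second gene, rose by at most 0.33. In all, 6 of 13 rose and 5 fell in Dex-GDU1 at 25 h, 3 and 6 in gdu1-1D, 3 and 7 in 35S-GDU5 and 4 and 6 in 35S-GDU6, where 46.1%, 44.5%, 55.0% and 48.8% of all tested genes were called. The counts were 2 and 0 at 7 h, 3 and 2 in 35S-GDU2 and 1 and 1 in the libraries labelled 35S-GDU4, where 16.0%, 24.7% and 15.4% of all were called.

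The bZIP factors of groups S1 and C are known to bind an ACTCAT element of the ERD5 promoter. Whether the copy printed above is that element was not tested. Of 9 genes for these factors, all tested by the authors, bZIP1 rose in all 7 comparisons. It stood at 32.1 FPKM in 35S-GDU6, against 6.95 FPKM in Col (log2 fold change 2.21), at 28.5 FPKM in 35S-GDU5, against 7.70 FPKM in Col (1.89), and at 14.6 FPKM in Dex-GDU1 at 25 h, against 12.6 FPKM in 4c-S7 (0.20, q 0.0419 in the authors' deposited table). bZIP53 rose in 6 comparisons, among them 35S-GDU5, with 60.6 FPKM against 31.0 FPKM in Col, and the libraries labelled 35S-GDU4, with 62.0 FPKM against 28.0 FPKM in Col. bZIP11 fell in Dex-GDU1 at 7 h (log2 fold change -0.42) and 25 h (-0.66), in gdu1-1D (-0.41) and in 35S-GDU6 (-1.55). bZIP63, of group C, fell in Dex-GDU1 at 25 h, with 32.0 FPKM against 52.3 FPKM in 4c-S7, by 0.39 in gdu1-1D and by 0.50 in 35S-GDU2 on the log2 scale, and rose in 35S-GDU6 (0.39) and in the libraries labelled 35S-GDU4 (0.41). bZIP25 rose in gdu1-1D (0.42), 35S-GDU5 (0.62) and 35S-GDU6 (0.41). The counts of rises and falls among the 9 were 1 and 1 at 7 h, 2 and 2 at 25 h, 3 and 2 in gdu1-1D, 2 and 1 in 35S-GDU2, 3 and 1 in 35S-GDU5, 5 and 2 in 35S-GDU6, and 3 and 1 in the libraries labelled 35S-GDU4. Of all tested genes 16.0%, 46.1%, 44.5%, 24.7%, 55.0%, 48.8% and 15.4% were called in these comparisons, so that 4 of 9 at 25 h lies near the share of all genes. The bZIP1, bZIP11 and bZIP53 entries carry the name of their upstream reading frame and were matched by position, and the position of bZIP2 is shared by 54 entries.

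Amino acid importers of broader range that also carry proline had more rises than falls in 6 of the 7 comparisons, as did all tested genes in each of the 7. LHT1, the lysine and histidine transporter gene of leaf cells, stood at 41.9 FPKM in 35S-GDU5, against 4.83 FPKM in Col (log2 fold change 3.12), and at 20.7 FPKM in gdu1-1D, against 4.66 FPKM in Col (2.15). In Dex-GDU1 LHT1 rose at 25 h, with 13.6 FPKM against 9.85 FPKM in 4c-S7 (0.47). AAP4 rose in 6 comparisons, with 41.5 FPKM in Dex-GDU1 at 25 h, against 17.4 FPKM in 4c-S7 (log2 fold change 1.25), and fell in the libraries labelled 35S-GDU4 (-0.32). AAP1 rose in 5 comparisons, with 76.7 FPKM in Dex-GDU1 at 25 h, against 37.3 FPKM in 4c-S7 (1.04). AAP6 fell in 35S-GDU6, with 16.9 FPKM against 37.1 FPKM in Col (-1.13), in 35S-GDU2 (-0.75), in gdu1-1D (-0.45) and in 35S-GDU5 (-0.43), and rose in Dex-GDU1 at 25 h (0.15). The low-level AAP3 rose in gdu1-1D (1.48) and in 35S-GDU5, with 2.51 FPKM against 0.415 FPKM in Col. Of 8 genes, 5 of 6 tested rose and 0 fell at 25 h, 2 of 7 and 0 at 7 h, 4 and 1 of 7 in gdu1-1D and in 35S-GDU5, 3 and 1 of 6 in 35S-GDU2, 3 and 2 of 6 in 35S-GDU6, and 1 and 1 of 6 in the libraries labelled 35S-GDU4. The shares of all tested genes called were 46.1% at 25 h, 16.0% at 7 h, 44.5% in gdu1-1D, 55.0% in 35S-GDU5, 24.7% in 35S-GDU2, 48.8% in 35S-GDU6 and 15.4% in the libraries labelled 35S-GDU4. LHT1 had a larger log2 fold change in size than any PROT gene in the constitutive lines gdu1-1D, 35S-GDU2, 35S-GDU5 and 35S-GDU6.

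The 3 genes that use or recover proline had a median absolute log2 fold change of 0.33 in Dex-GDU1 at 25 h, against 0.22 over all tested genes, of 0.35 in gdu1-1D, against 0.27, of 0.37 in 35S-GDU6, against 0.29, and of 0.29 in 35S-GDU5, against 0.38. The prolyl-tRNA synthetase genes AT3G62120 and AT5G52520 fell together in Dex-GDU1 at 25 h (log2 fold change -0.33 and -0.37), in gdu1-1D (-0.35 and -0.47), in 35S-GDU5 (-0.29 and -0.65) and in 35S-GDU6 (-0.37 and -0.30). In 35S-GDU2 AT5G52520 alone fell (-0.24). The proline iminopeptidase gene PIP rose in 35S-GDU6 (0.45) and gdu1-1D (0.28). None of the 3 passed at 7 h or in the libraries labelled 35S-GDU4 by the authors' Cuffdiff q.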

How the data were processed

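Leaf RNA was sequenced as paired reads of 100 bases. Per the submitters' processing notes, TopHat2, Cufflinks and Cuffdiff were used with the TAIR10 genome; versions, annotation, strand setting and depth are not given in the sources used here. Per the file headers, the authors' FPKM values are Cuffdiff estimates, 1 per gene and group, normalised separately for each comparison. The deposited p-values and q-values are Cuffdiff's, unadjusted and adjusted over genes, as the headers name them. A score column deposited by the authors holds the Cuffdiff test statistic. The deposited log2 fold changes have cells that are not numbers and were not used.

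Log2 fold changes were computed from FPKM (Python 3.11.15, pandas 2.3.3, NumPy 2.4.6, SciPy 1.17.1). Standard errors are the absolute log2 fold change over the normal quantile of the two-sided p. Differences between comparisons were referred to a normal distribution and adjusted by Benjamini-Hochberg over all genes tested in both. The procedure was also run on simulated data. These were drawn from the same normal distribution with the recomputed standard errors, so the run cannot check either of them. Listed starts count from 0 and are printed with 1 added, since 8881 of 21762 entries named by locus tag then match the annotated start, against 91 as listed. No entry runs past a chromosome end of TAIR10.1. Of the entries 31793 could be given a locus tag, and 1238 join several genes.

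The members and lists were chosen with earlier results of these data known. Named were all 9 members, the targeted genes, up to 3 called genes of each related list per comparison with at least 1 FPKM in a group, and the 5 genes most like P5CS1 and ERD5. Values of related genes in further comparisons, OAT and the prolyl-tRNA synthetase genes among them, were added after their values were seen. As alternatives a q limit of 0.01, a minimum of 1 FPKM, readjustment over such genes, a log2 change of at least 1 with and without a pseudocount of 1, centring on the median gene, and standard errors from the test statistic were tried.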

Additional observations from a re-analysis of the deposited data

Results flagged for a closer look

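The effect seen in Dex-GDU1 relative to 4c-S7 differed between 25 h and 7 h for 5 of the 9 proline genes by the test of the difference of log2 fold changes, with adjustment over 17114 genes, of which 17.2% differed. The difference, 25 h minus 7 h, was 2.28 for P5CS1, 0.74 for P5CS2, -1.08 for ERD5, 1.20 for AT5G38710 and 0.42 for P5CDH. With standard errors from the test statistic AT5G38710 and P5CDH no longer passed (adjusted p 0.176 and 0.692). The 4c-S7 levels also differed between the times, with P5CS1 at 30.7 FPKM at 25 h and 9.49 FPKM at 7 h, and, by the authors' deposited tables, ERD5 at 12.0 FPKM at 25 h and 34.2 FPKM at 7 h. Time since the spray, time of day and time since the humidity dome cannot be told apart here.

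The change in Dex-GDU1 at 25 h differed from that in gdu1-1D for 5 of the 9, and for 11.6% of all genes tested in both. The difference, Dex-GDU1 at 25 h minus gdu1-1D, was -2.94 for ERD5, 0.40 for P5CDH, 0.53 for PROT1, 0.46 for PROT2 and 1.72 for PROT3. With standard errors from the test statistic ERD5 alone of these passed, and the other 4 had adjusted p of 0.777, 0.6, 1 and 0.464. The controls differed as well, with ERD5 at 12.0 FPKM in 4c-S7 at 25 h and 5.83 FPKM in Col in the authors' deposited tables. Spray, control line, time of over-expression and possibly time of sampling cannot be told apart here.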

How the results depend on the processing

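No result changed direction, but of the alternatives run only centring on the median gene could change the sign of a fold change. Of the proline genes, 4 were called in Dex-GDU1 at 7 h, 8 at 25 h, 6 in gdu1-1D, 5 in 35S-GDU2, 3 in the libraries labelled 35S-GDU4, 5 in 35S-GDU5 and 7 in 35S-GDU6. Of all tested genes, 16.0%, 46.1%, 44.5%, 24.7%, 15.4%, 55.0% and 48.8% were called in these comparisons, in the same order. With an absolute log2 fold change of at least 1 also required, the counts of proline genes became 0, 3, 2, 1, 0, 3 and 3. On the log2(FPKM + 1) scale they became 0, 3, 2, 1, 0, 3 and 2, because a limit on size was added. At q below 0.01 the libraries labelled 35S-GDU4 had 1 called gene and 35S-GDU2 had 2. Leaving out entries that share their position, an alternative chosen after seeing the data that drops P5CS1, P5CDH, PROT2 and PROT3, gave 2 at 7 h, 4 at 25 h, 3 in 35S-GDU2, 3 in 35S-GDU5 and 4 in 35S-GDU6. The called genes that remained were P5CS2, P5CR, ERD5 and AT5G38710 in gdu1-1D. In the libraries labelled 35S-GDU4 they were P5CR and ERD5. The related lists held 6, 22, 22, 13, 8, 21 and 25 called genes, which became 0, 3, 4, 3, 3, 4 and 6 with the limit on size, and 0, 3, 3, 2, 3, 4 and 6 on the log2(FPKM + 1) scale. The shares of all tested genes under these alternatives are not given here, so the counts under them cannot be set against a background. A minimum of 1 FPKM, readjustment and centring left all 63 single outcomes (9 genes in 7 comparisons, called or not) on their side of the threshold. At q below 0.01, 10 of the called ones were lost. Among these were P5CS1 in the libraries labelled 35S-GDU4, and ERD5 in the same libraries and in 35S-GDU2.

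Standard errors taken from the test statistic left 3 of the 5 proline genes that differed between 25 h and 7 h, and 1 of the 5 that differed between Dex-GDU1 at 25 h and gdu1-1D. The deposited p-values and test statistics thus imply different errors, and the cause was not tested. No paired analysis was possible because the tables hold 1 value per gene and group and none per library. For the same reason leaving out each replicate was not run. Depth is unknown, so its limits on the low values of AT5G38710 and PROT3 could not be given.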
